A study of Mus musculus with 58 samples.

Results

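Kcnc1, Kcnc2 and Kcnc4 encode pore-forming subunits of the Kv3 family of voltage-gated potassium channels. They were read as the 3 named genes of a count table of 25648 genes, over the 54 cells that carry the quality label Pass, of 58 cells in all. The family's remaining member was not analysed here. The cells are parvalbumin (PV) interneurons from the ventral subiculum of mice, part of the hippocampal formation, and each library holds the cytosol that a patch pipette drew from 1 cell. All animals were PV-Cre::Ai9, so Cre recombinase under the parvalbumin gene switches on a red reporter that then stays on, whatever the later level of Pvalb. The groups were female at postnatal day 40 (P40, 17 Pass cells), female P42 (10), male P35 (14) and male P36 (13); the series counts 3 female and 4 male individuals. Which animal a cell came from is not labelled, and every female cell is older than every male cell, so cells were not treated as replicates and sex cannot be told apart from age.

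Kv3 channels open only at strongly depolarized potentials and close fast, which lets a neuron repolarize quickly and fire again at once. They are known for the brief action potentials and high firing rates of PV interneurons. Kcnc1 encodes Kv3.1 and Kcnc2 encodes Kv3.2, the Kv3 subunits best known from cortical and hippocampal fast-spiking interneurons. Kcnc4 encodes Kv3.4, whose current inactivates and which is known from axons and terminals of several neuron types.

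Members of a channel family are most alike around the potassium selectivity filter, and reads can be shared between genes only where the letters are the same. The Kcnc2 coding bases of that stretch are shown as the transcript of the member with the highest level in these cells. They are from GENCODE vM21 on GRCm38, chr10:112456199-112456276 (+ strand, exon 3 of its longest coding transcript), 5′ to 3′, and the capitals mark the codons of the filter signature.
Kcnc2: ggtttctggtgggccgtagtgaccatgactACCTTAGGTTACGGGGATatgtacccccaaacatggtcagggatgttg
In these 78 bases, Kcnc2 was 76.9% identical to Kcnc1 and 80.8% to Kcnc4, and Kcnc1 was 89.7% identical to Kcnc4. Over all annotated transcripts, the longest run of identical bases was 29 between Kcnc1 and Kcnc2, 29 between Kcnc1 and Kcnc4, and 21 between Kcnc2 and Kcnc4. None of these runs lies wholly within the stretch shown. The labels name no read length; a read longer than those runs differs at 1 or more bases between the genes.

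The Pass cells hold between 2.05 and 52.3 M counts each (median 11.5 M). Levels are CPM, counts scaled to the cell's own total, and where genes are compared with each other the CPM is divided by the length of the gene's merged exons in kb. Of the markers of PV interneurons, Gad1, which makes GABA, lay at 1337 to 6751 CPM and above 100 CPM in 54 of 54 cells. Pvalb itself ran from 1.18 to 788 CPM with a median of 86.9 CPM, and lay at 100 CPM or more in 24 of 54 cells. Sst, a marker of another interneuron class, reached 3298 CPM and lay at 100 CPM or more in 10 cells. In 16 cells Sst or Vip lay above Pvalb, and results that rest on the cells' identity are also given without those 16. They are called the Sst or Vip cells for short, though some held little of either gene. Female P40 cell 11, with 1.18 CPM of Pvalb, had 1.66 CPM of Sst. Because Pvalb helps to set them, a change in a Pvalb result without them is partly built in. The vesicular glutamate transporter Slc17a7 had a median of 9.07 CPM and lay at 100 CPM or more in 8 of 54 cells.

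Kcnc2 and Kcnc1 were present at a high level in every cell, and Kcnc4 was not. Kcnc2 lay at 136 to 996 CPM (median 580 CPM) and Kcnc1 at 114 to 698 CPM (median 338 CPM), so both exceeded 100 CPM in 54 of 54 cells (exact Clopper-Pearson 95% binomial interval 93.4% to 100%). Kcnc4 ran from 0 to 94.6 CPM with a median of 0.852 CPM. It had at least 1 count in 48 of 54 cells (88.9%, interval 77.4% to 95.8%), and in 33 of 54 once every cell was thinned to the total of the shallowest cell. It reached 1 CPM in 26 of 54 cells and 10 CPM in 13 of 54 (24.1%, interval 13.5% to 37.6%). In the 6 cells without a Kcnc4 count, the level that 3 counts would have made lay between 0.107 and 0.715 CPM. The intervals cover only the sampling of cells and take the 54 cells as independent, though cells share animals and pools. The floors cover counting error only, since no molecular identifiers are named and copies made by PCR raise the counts.

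By pool, Kcnc2 (chr10:112271121-112467024, + strand) had its lowest, median and highest cell at 146, 571 and 870 CPM in female P40, at 262, 619 and 996 CPM in female P42, at 221, 593 and 984 CPM in male P35 and at 136, 582 and 943 CPM in male P36. The 4 medians lay within 571 to 619 CPM, and the ranges of all 4 pools overlapped. Kcnc1 (chr7:46396497-46438704, + strand) had them at 124, 394 and 553 CPM in female P40, at 166, 388 and 594 CPM in female P42, at 114, 254 and 444 CPM in male P35 and at 190, 317 and 698 CPM in male P36. The medians of both female pools lay above those of both male pools, with the cells of all 4 pools overlapping. Kcnc4 (chr3:107438303-107459552, − strand) had them at 0, 0.528 and 94.6 CPM in female P40, at 0, 1.88 and 27.3 CPM in female P42, at 0, 0.658 and 39.8 CPM in male P35 and at 0.208, 3.87 and 47.5 CPM in male P36. The cells at 10 CPM of Kcnc4 or more came from every pool, 4 of 17 in female P40, 2 of 10 in female P42, 4 of 14 in male P35 and 3 of 13 in male P36.

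**Figure D1:**
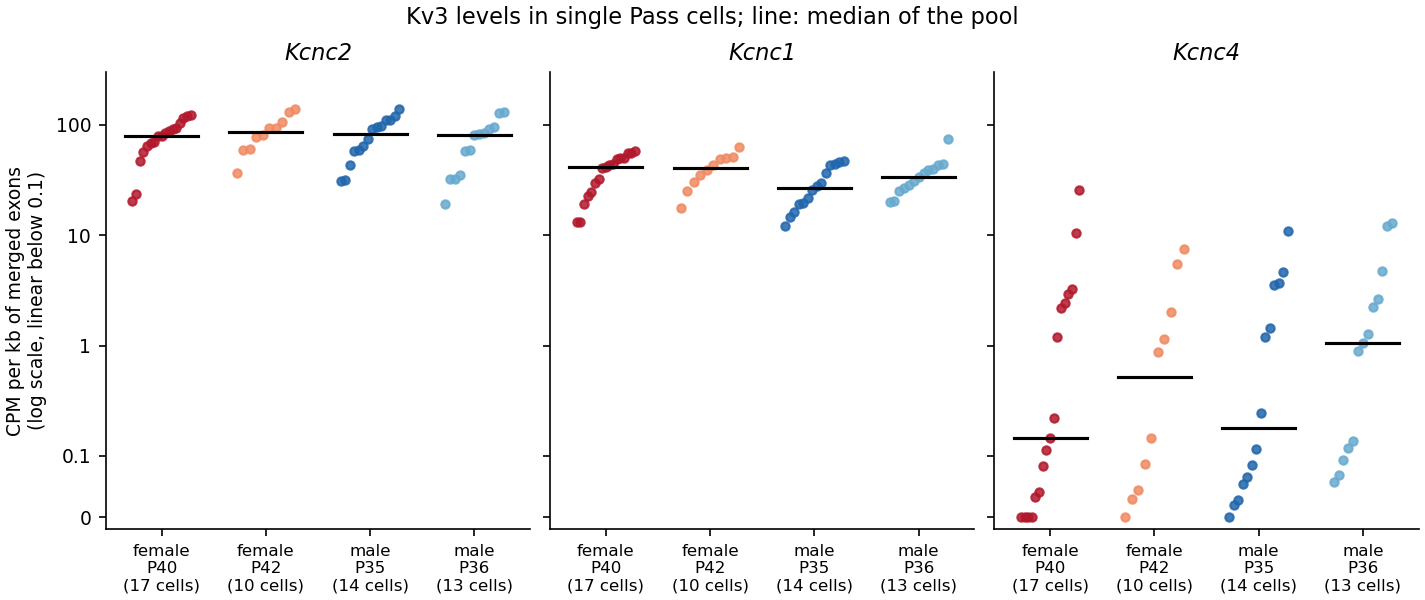
Level of each Kv3 gene in single Pass cells, in CPM per kb of merged exons (log scale, linear below 0.1), by pool; each point is a cell and the line is the pool's median. Kcnc2 and Kcnc1 form compact bands with medians of 81.2 and 35.7 CPM per kb over all cells, while Kcnc4 spreads from 0 to 25.8 CPM per kb.

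Per kb of merged exons the order of the levels was Kcnc2, then Kcnc1, then Kcnc4, with medians over the 54 cells of 81.2, 35.7 and 0.232 CPM per kb. Kcnc2 lay above Kcnc1 in 47 of 54 cells, and the log2 ratio of their mean levels was 1.05 in female P40, 1.12 in female P42, 1.48 in male P35 and 1.02 in male P36 (1.17 ± 0.21, mean ± SD, n = 4 pools). Kcnc1 lay above Kcnc4 in 53 of 54 cells, by 3.95 ± 0.42 on the log2 scale per kb (SD, n = 4 pools). Kcnc2 lay above Kcnc4 in 54 of 54 cells, by 5.12 ± 0.52 (SD, n = 4 pools). Each of these ratios had the same sign in all 4 pools and exceeded the SD between pools, but an exact two-sided sign-flip permutation test over 4 pools cannot go below p = 0.13, which is the value all 3 pairs had, also after adjustment over the 3 pairs.

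The balance between Kcnc1 and Kcnc2, whose products can assemble within the same channel, differed between cells. The share of Kcnc1 in the sum of Kcnc1 and Kcnc2 per kb ran from 11.5% to 67.7% (median 30.3%) and exceeded 50% in 7 of 54 cells. Its size depends on the merged exon lengths, 9458 bases for Kcnc1 and 7138 for Kcnc2. The longest coding sequences, 1755 and 1926 bases, have the reverse order, and the share was not computed with them. In CPM, without lengths, Kcnc2 lay above Kcnc1 in 41 of 54 cells. The pool medians were 33.6% in female P40, 31.6% in female P42, 26.2% in male P35 and 30.9% in male P36, and at least 1 cell in each pool lay above 50%. The cell with the most Kcnc1, male P36 cell 3, had 698 CPM of Kcnc1 and 252 CPM of Kcnc2. The cell with the most Kcnc2, female P42 cell 7, had 237 CPM of Kcnc1 and 996 CPM of Kcnc2. Across the 54 cells the levels of the 2 genes had a Spearman rho of 0.0045 and a Pearson r of -0.028 on log2(CPM + 1). These values, like every correlation given here, are over cells that share animals, depth and library preparation, and are descriptions without a p.

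Kcnc1 and Kcnc2 were among the more evenly expressed genes of these cells. Their coefficients of variation over cells were 40.1% for Kcnc1 and 41.1% for Kcnc2, against a median of 82.8% over the 11187 genes with a mean of at least 5 CPM, of which 1098 had a lower value than Kcnc1 and 1208 a lower value than Kcnc2. Kcnc4 had 189% and Pvalb 119%. Pool membership accounted for 9.01% of the variance of log2(CPM + 1) for Kcnc1, 3.35% for Kcnc2, 1.74% for Kcnc4 and 13.1% for Pvalb, so nearly all of the Kv3 spread lay between cells of the same pool.

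Set beside 38 other genes of voltage-gated potassium channel subunits and their auxiliary proteins, Kcnc2 ranked 3 and Kcnc1 ranked 5 of 41 by median CPM per kb, while Kcnc4 ranked 27. The genes above Kcnc2 were both auxiliary: Kcnab3, a cytosolic beta subunit, at a median of 130 CPM per kb, and Kcnip2, a calcium-binding partner of Kv4 channels, at 94.7 CPM per kb. Kcnab1, another beta subunit, lay at 36.6 CPM per kb, next to Kcnc1. On this scale Kcnc2 and Kcnc1 therefore had the highest medians of all pore-forming subunits in the list. Of the genes listed as partners of fast spiking, Cplx1, a regulator of vesicle release, had the highest median with 1145 CPM per kb, and Pvalb lay at 83.5 CPM per kb, close to Kcnc2. Of the listed Kv3 partners, the protein kinase CK2 subunit Csnk2b had the highest median, 38.5 CPM per kb.

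**Figure D2:**
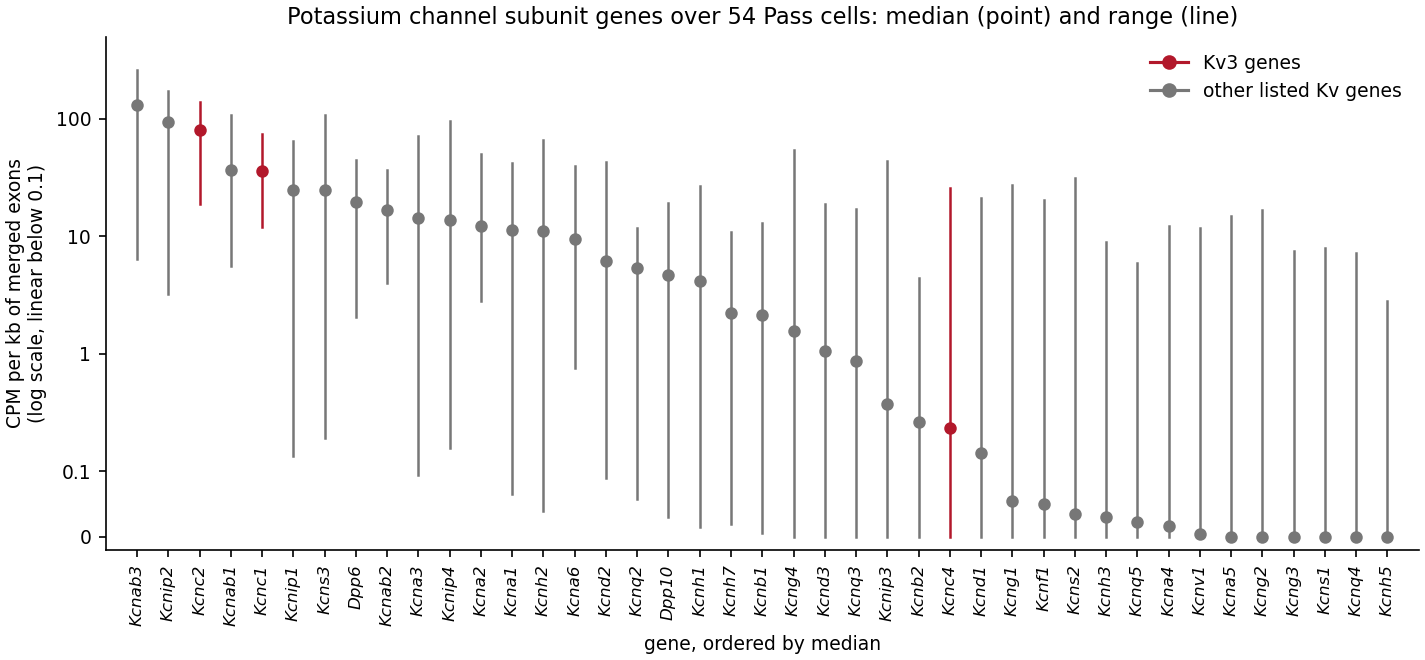
Median (point) and range over 54 Pass cells (line) of 41 potassium channel genes in CPM per kb of merged exons (log scale, linear below 0.1), ordered by median, with the Kv3 genes in red. Kcnc2 and Kcnc1 rank 3 and 5 with no cell under 12.04 CPM per kb, and Kcnc4 ranks 27 with cells at 0.

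Kcnc1 had a weak positive relation to Pvalb over cells, and Kcnc2 had none with a common direction over the pools. Over 54 cells Kcnc1 and Pvalb had a Spearman rho of 0.22 and a Pearson r of 0.17, and rho was 0.012 in female P40, 0.59 in female P42, 0.49 in male P35 and 0.41 in male P36. With the pool means subtracted it was 0.32, and without the 16 cells in which Sst or Vip lay above Pvalb it was 0.17. Kcnc2 and Pvalb had a rho of -0.10 (Pearson r -0.082), positive in 2 of 4 pools, and Kcnc4 and Pvalb a rho of -0.21 (Pearson r -0.20), positive in 1 of 4 pools. The cells at the ends of the Pvalb range are given as examples. The cell with the least Pvalb, female P40 cell 11 with 1.18 CPM, had 530 CPM of Kcnc1 and 739 CPM of Kcnc2. The cell with the most, female P40 cell 8 with 788 CPM, had 470 CPM of Kcnc1, 870 CPM of Kcnc2 and no count of Kcnc4.

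**Figure D3:**
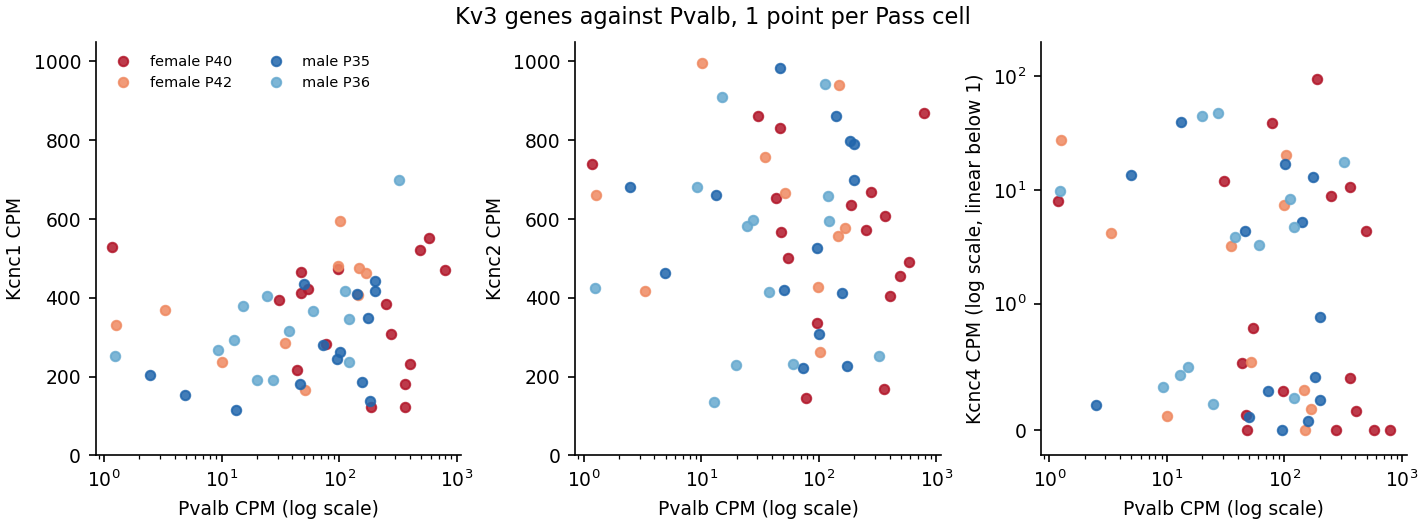
CPM of Kcnc1, Kcnc2 and Kcnc4 against CPM of Pvalb (log scale), 1 point per Pass cell, coloured by pool. Kcnc1 and Kcnc2 stay above 100 CPM across the whole Pvalb range of 1.18 to 788 CPM, and Kcnc4 cells above 10 CPM occur at low and high Pvalb.

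The gene whose level over cells was most like that of Kcnc2 was Gad1, the main GABA-synthesizing enzyme. Among 10924 genes with at least 1 count in 40 cells or more and a mean of at least 5 CPM, Gad1 ranked 1 with a Spearman rho of 0.61 over 54 cells (Pearson r 0.63), with 0.61 in female P40, 0.70 in female P42, 0.68 in male P35 and 0.54 in male P36. The value was also 0.61 in cells thinned to an equal total, and 99% of genes lay under 0.39. The next were Tmem30a (0.59), Slc24a2 (0.58), Shisa9 (0.58), Tmem50b (0.57) and Zdhhc17 (0.57). At the other end stood Camk2a, a kinase abundant in excitatory neurons, with a rho of -0.59 and negative in all 4 pools, and Slc17a7 had -0.38, likewise negative in all 4. Male P36 cell 13, with the least Gad1 (1337 CPM), had 229 CPM of Kcnc2. This cell also had the most Slc17a7 of the 54 cells (428 CPM) and 297 CPM of Sst. The part of such RNA in its Kcnc2 value was not tested. Male P36 cell 8, with the most Gad1 (6751 CPM), had 424 CPM of Kcnc2, under the median of 580 CPM. With the total count of the cell Kcnc2 had a rho of -0.059.

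Kcnc1 resembled other genes. Among its closest were Gm20441 (0.58), Ddt (0.56), Farsb (0.56), Ubash3b (0.50) and Tmem189 (0.49), while Gad1 ranked 221 with 0.32. With Sst Kcnc1 had a rho of -0.35, negative in all 4 pools, and of -0.19 without the 16 cells in which Sst or Vip lay above Pvalb. For Kcnc4 the closest genes were Tekt5 (0.74), Ldb2 (0.60), Nde1 (0.60), Neurod2 (0.59), Adam19 (0.58) and Smpd2 (0.57). All of these but Ldb2 had a median under 1 CPM, and in thinned cells the 6 values were 0.39 to 0.49, so in counts this sparse they say little. Kcnc4 had a rho of 0.42 with Slc17a7, positive in all 4 pools, and of -0.28 with Gad1, but of 0.065 with Camk2a, positive in 2 of 4 pools.

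**Figure D4:**
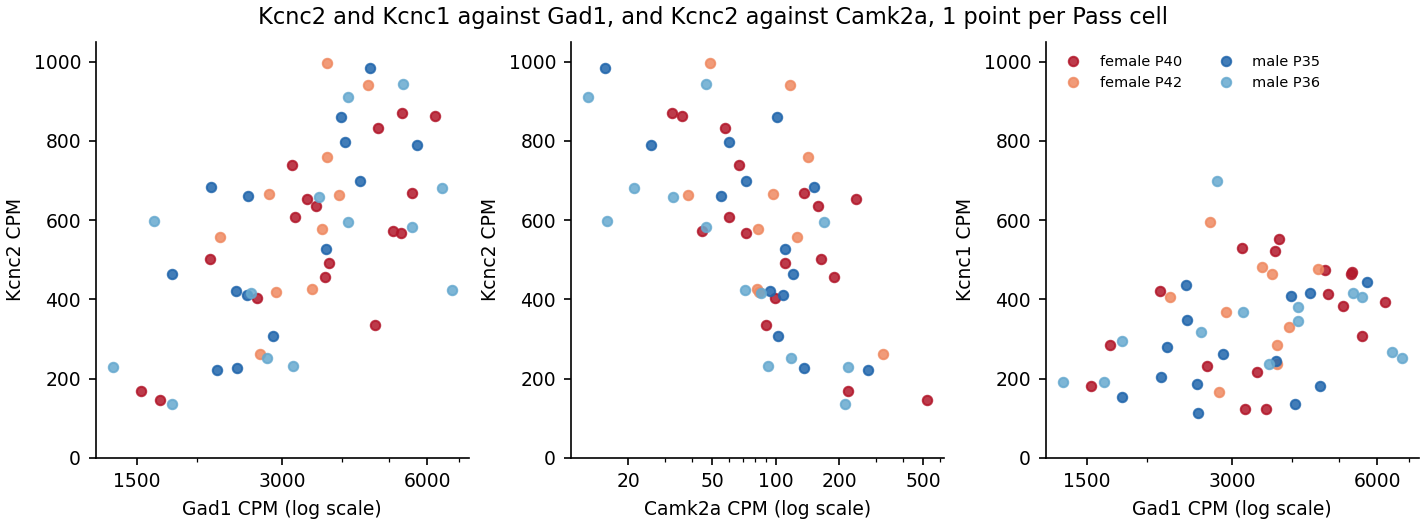
CPM of Kcnc2 against Gad1 and against Camk2a, and CPM of Kcnc1 against Gad1 (log scales on the x axes), 1 point per Pass cell, coloured by pool. Kcnc2 is higher in cells with more Gad1 (Spearman rho 0.61) and lower in cells with more Camk2a (-0.59), and the Kcnc1 points follow Gad1 less closely (0.32).

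Female and male cells did not differ detectably in any of the 3 genes. The counts of the Pass cells were summed per pool and compared with edgeR's quasi-likelihood test over 14933 genes, of which 2 passed an adjusted p of 0.05 (0.0134% of genes tested), neither a Kv3 gene. Kcnc1 had 343 and 371 CPM in female P40 and P42, against 280 and 362 CPM in male P35 and P36. The groups overlapped, and the log2 fold change of female over male was 0.15 (SE 0.19, edgeR adjusted p = 0.993). Kcnc2 had 530 and 624 CPM in the female pools, against 577 and 496 CPM in the male pools, a log2 fold change of 0.10 (SE 0.17, edgeR adjusted p = 0.996). Kcnc4 had 7.77 and 7.10 CPM in the female pools, against 7.77 and 13.5 CPM in the male pools, with the male P36 pool highest and a log2 fold change of -0.52 (SE 0.72, edgeR adjusted p = 0.994). Pvalb had 206 and 62.0 CPM in the female pools, against 104 and 82.5 CPM in the male pools, so the female pools lay on either side of both male pools. 

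The sums of other cells' markers differed between these pools. The 9 markers of other interneurons summed to 303 and 320 CPM in the female pools, against 892 and 922 CPM in the male pools, the 7 of excitatory neurons to 117 to 164 CPM in the female and 212 to 234 CPM in the male pools, and the 8 of oligodendrocytes to 264 to 920 CPM in the female and 1116 to 1461 CPM in the male pools. The 3 blood markers summed to 690 to 971 CPM in the female and 70.5 to 158 CPM in the male pools. The 7 microglia markers, at 165 to 893 CPM in the female and 224 to 264 CPM in the male pools, and the 6 astrocyte markers, at 791 to 1209 CPM in the female and 821 to 859 CPM in the male pools, overlapped. All genes of these lists were detected in every pool, and their part in the Kv3 values was not tested.

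Of 37 other potassium channel genes tested, 15 lay higher and 22 lower in female pools and 0 passed the test, with a median log2 fold change of -0.10 against 0.0044 over all genes. Of 9 Kv3 partners 6 lay higher and 3 lower, and of 18 fast-spiking partners 9 and 9, with 0 called in either list. The potassium channel genes with the smallest p were Kcns2, with 3.43 (SE 0.88), and Kcng1, with -2.91 (SE 0.99), both with an edgeR adjusted p of 0.878.

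The labels also give rm, cm and vrest of each recorded cell without units; the names are usually read as membrane resistance, capacitance and resting potential. In the 49 Pass cells that carry each label, rm ran from 88 to 805 (median 266), cm from 18 to 102 (median 38) and vrest from -72 to -48 (median -58). Rm and cm had a Spearman rho of -0.80 over 49 cells, negative in all 4 pools, so a split by one is largely the reverse split by the other. For each label, the cells of a pool above the pool's median (high) and those at or below it (low) were summed. The 8 sums were compared with the pool as a block. The sides followed the cell numbers in part. In female P42 the high-rm cells were cells 7 to 10 and the low-rm cells were cells 1 to 5. In male P36 the high-rm cells were cells 5 and 9 to 13. Pvalb lay at 188 to 788 CPM in female P40 cells 1 to 8 and at 1.18 to 250 CPM in cells 9 to 17. Whether that order stands for animal or day of collection is not labelled. The pool as a block would not remove it, and its part in the values was not tested.

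Cells with high rm had less Kcnc1 than cells with low rm in each pool, but the difference did not pass the test over all genes. Kcnc1 was 319 CPM in high-rm and 401 CPM in low-rm cells of female P40, 304 and 430 CPM in female P42, 249 and 314 CPM in male P35, and 313 and 397 CPM in male P36 (296 ± 32.0 CPM in high-rm and 386 ± 49.6 CPM in low-rm cells, SD, n = 4 pools). Across pools the 2 sides overlapped, since the high-rm sum of female P40 lay above the low-rm sum of male P35. The log2 fold change of high over low rm was -0.38 (SE 0.14) with an unadjusted p of 0.0220 and an adjusted p of 0.920 in edgeR's test, in which 1 of 13958 genes passed (0.00716%). Without the 16 cells in which Sst or Vip lay above Pvalb it was -0.21 (SE 0.20), and with each cell weighing the same, in limma, -0.25 (SE 0.16). Cell by cell the relation was weaker, with a Spearman rho of -0.18 over 49 cells (Pearson r -0.14), and female P40 went the other way with 0.13.

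Kcnc2 did not share this pattern. It was 523 CPM in high-rm and 513 CPM in low-rm cells of female P40, 715 and 547 CPM in female P42, 517 and 613 CPM in male P35, and 593 and 402 CPM in male P36. The log2 fold change was 0.18 (SE 0.16, edgeR adjusted p = 0.977), and 0.36 (SE 0.21) without the 16 cells in which Sst or Vip lay above Pvalb. The log2 ratio of Kcnc1 to Kcnc2 had a Spearman rho of -0.29 with rm over 49 cells (Pearson r -0.26) and was negative in all 4 pools, with values of -0.12 in female P40, -0.60 in female P42, -0.31 in male P35 and -0.088 in male P36. The cell with the lowest rm, male P35 cell 11 with 88, had a Kcnc1 share of 53.7%, and the cell with the highest, female P42 cell 9 with 805, a share of 22.1%. Kcnc4 was 11.8 CPM in high-rm and 2.53 CPM in low-rm cells of female P40, 8.65 and 4.38 CPM in female P42, 8.93 and 10.4 CPM in male P35, and 18.8 and 8.54 CPM in male P36, a log2 fold change of 1.03 (SE 0.77, edgeR adjusted p = 0.968).

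Pvalb had the same direction as Kcnc1 in the split by rm. It was 206 CPM in high-rm and 300.4 CPM in low-rm cells of female P40, 11.9 and 128 CPM in female P42, 98.2 and 121 CPM in male P35, and 42.4 and 116 CPM in male P36. The log2 fold change was -1.37 (SE 0.46, edgeR unadjusted p = 0.0150, adjusted p = 0.902). It was -0.39 (SE 0.30, edgeR unadjusted p = 0.234) without the 16 cells in which Sst or Vip lay above Pvalb, a choice that itself depends on Pvalb. It was -0.76 (SE 0.28) without female P42 and -0.89 (SE 0.64) without the pool as a block. Of 18 fast-spiking partners, 16 lay lower and 2 higher in high-rm cells, with a median log2 fold change of -0.30 against 0.0028 over all genes, and 0 passed the test. Among them Kcns3, a silent subunit that assembles with other potassium channels, had -0.88 (SE 0.30, edgeR adjusted p = 0.902). Of 36 other potassium channel genes 16 lay higher and 20 lower, with a median of -0.12 and 0 called. Those with the smallest p were Kcns2, a subunit gene with counts near 0 in most cells, with 5.24 (SE 0.82, edgeR adjusted p = 0.739), and Kcnip1, a Kv4 partner, with -0.88 (SE 0.22, edgeR adjusted p = 0.902). Of 8 Kv3 partners 6 lay higher and 2 lower, and 0 passed.

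The sums of astrocyte markers lay higher in high-rm cells of all 4 pools, at 751 to 1375 CPM in high-rm and 669 to 1002 CPM in low-rm cells. Those of microglia, at 106 to 1266 CPM in high-rm and 90.9 to 494 CPM in low-rm cells, and of blood, at 65.7 to 1629 CPM in high-rm and 30.1 to 133 CPM in low-rm cells, lay higher in 3 of 4 pools and lower in male P36. Those of excitatory neurons, at 82.4 to 335 CPM in high-rm and 119.8 to 233 CPM in low-rm cells, lay higher in all pools but female P42. The remaining sums were split. The oligodendrocyte markers lay higher at high rm in female P42 and male P35 and lower in female P40 and male P36, and the markers of other interneurons lay higher in both female and lower in both male pools. Gene by gene, 8 of 8 oligodendrocyte, 7 of 7 microglia, 6 of 6 astrocyte and 3 of 3 blood markers had a positive log2 fold change. The median of the oligodendrocyte markers was 1.24, against 0.0028 over all genes. Of the excitatory markers 4 of 7 were positive, and of the other-interneuron markers 3 of 9. In every sum at least 6 of 6 astrocyte, 7 of 7 microglia, 3 of 3 blood, 6 of 7 excitatory, 7 of 8 oligodendrocyte and 8 of 9 other-interneuron markers were detected. The gene that passed the test was Vip, which 2 of 54 cells hold at 100 CPM or more. The part of these cells and markers in the Kv3 values was not tested.

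**Figure D5:**
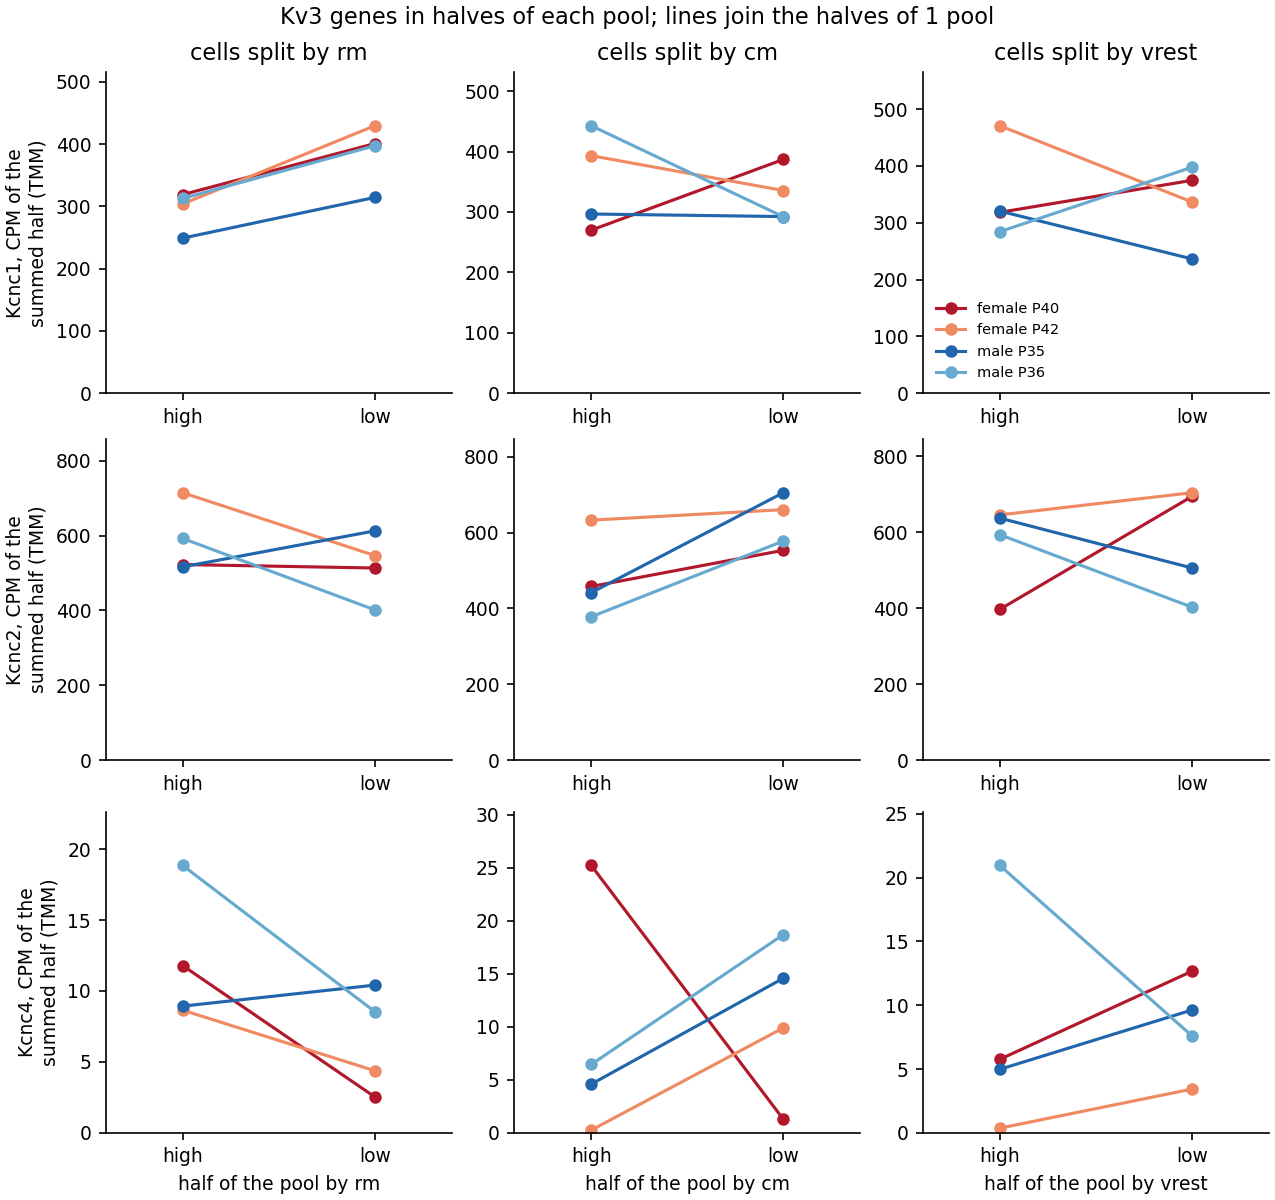
CPM (on the TMM-scaled total) of Kcnc1, Kcnc2 and Kcnc4 in the summed cells above the median (high) and at or below it (low) of rm, cm and vrest; lines join the 2 sums of 1 pool. Kcnc1 is lower at high rm and Kcnc2 lower at high cm in 4 of 4 pools, neither past the test over all genes, and the vrest panels show both directions.

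In the split by cm it was Kcnc2 that lay lower in each pool. Kcnc2 was 458 CPM in high-cm and 553 CPM in low-cm cells of female P40, 633 and 661 CPM in female P42, 442 and 705 CPM in male P35, and 378 and 578 CPM in male P36 (478 ± 109 CPM in high-cm and 624 ± 70.9 CPM in low-cm cells, SD, n = 4 pools). The difference was small in female P42 and largest in male P35. The log2 fold change of high over low cm was -0.41 (SE 0.15) with an unadjusted p of 0.0224 and an adjusted p of 0.99997 in edgeR's test, in which 1 of 13944 genes passed (0.00717%). Without the 16 cells in which Sst or Vip lay above Pvalb it was -0.34 (SE 0.14). Over 49 cells Kcnc2 and cm had a Spearman rho of -0.30 (Pearson r -0.31), negative in all 4 pools.

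Gad1 lay lower in high-cm cells as well, with a log2 fold change of -0.30 (SE 0.10) and an edgeR unadjusted p of 0.0189. The summed PV interneuron markers, to which Gad1 contributes most, were 4676 to 5038 CPM in high-cm and 5207 to 6279 CPM in low-cm cells, lower at high cm in all 4 pools. The oligodendrocyte markers summed to 177 to 2607 CPM in high-cm and 268 to 1024 CPM in low-cm cells and lay higher at high cm in all pools but female P42, with 2607 CPM in high-cm and 334 CPM in low-cm cells of male P35, the pool with the largest Kcnc2 difference. The microglia markers summed to 106 to 2833 CPM in high-cm and 98.0 to 375 CPM in low-cm cells, higher in all pools but male P35, and 7 of 7 had a positive log2 fold change (median 1.05 against -0.027 over all genes). The astrocyte markers, at 574 to 2131 CPM in high-cm and 660 to 1064 CPM in low-cm cells, lay higher in all pools but male P36, and the blood markers lay lower in both female and higher in both male pools. The markers of other interneurons summed to 822 CPM in high-cm and 227 CPM in low-cm cells of male P35, and 1564 and 459 CPM in male P36. Both pools had larger Kcnc2 differences than the female pools. In female P40 the sums were 191 and 190 CPM, and in female P42 217 and 339 CPM. The excitatory neuron markers lay higher at high cm in female P40 and lower in the other pools. The 1 gene that passed the test for cm is a marker of other interneurons. The part of these markers in the Kcnc2 difference was not tested.

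Kcnc1 was 270 CPM in high-cm and 387 CPM in low-cm cells of female P40, 393 and 335 CPM in female P42, 297 and 292 CPM in male P35, and 443 and 292 CPM in male P36, a log2 fold change of 0.083 (SE 0.19, edgeR adjusted p = 0.99997). Kcnc4 was 25.2 CPM in high-cm and 1.28 CPM in low-cm cells of female P40 but 0.253 and 9.90 CPM in female P42, 4.59 and 14.6 CPM in male P35, and 6.45 and 18.7 CPM in male P36. The pools differed in direction and the log2 fold change was -1.44 (SE 1.59, edgeR adjusted p = 0.99997). Pvalb had 1.18 (SE 0.48, edgeR unadjusted p = 0.0371, adjusted p = 0.99997) and lay higher in high-cm cells of 3 of 4 pools. This value was 0.40 (SE 0.40, edgeR unadjusted p = 0.344) without the 16 cells in which Sst or Vip lay above Pvalb, a choice that itself depends on Pvalb. It was 0.67 (SE 0.45) without female P42 and 0.58 (SE 0.60) without the pool as a block. In the lists of channel genes and partners 0 genes were called: 13 of 36 other potassium channel genes, 3 of 8 Kv3 partners and 8 of 18 fast-spiking partners lay higher in high-cm cells. The Kv3 partner with the smallest p was Prkcb, the beta isoform of protein kinase C, with -0.36 (SE 0.14, edgeR unadjusted p = 0.0350).

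By vrest none of the 3 genes had a common direction over the pools, with high here meaning less negative. Kcnc1 was 318 CPM in high-vrest and 375 CPM in low-vrest cells of female P40, 471 and 337 CPM in female P42, 321 and 236 CPM in male P35, and 284 and 398 CPM in male P36, a log2 fold change of 0.051 (SE 0.22, edgeR adjusted p = 0.999). Because several cells share the median value, the high side of female P42 is a single cell. Kcnc2 was 397 CPM in high-vrest and 694 CPM in low-vrest cells of female P40, 645 and 704 CPM in female P42, 637 and 506 CPM in male P35, and 593 and 403 CPM in male P36. It lay lower in both female and higher in both male pools, with a log2 fold change over all pools of -0.0070 (SE 0.24, edgeR adjusted p = 0.999). Kcnc4 had a log2 fold change of -0.94 (SE 1.22, edgeR adjusted p = 0.999) and lay higher in 1 of 4 pools. In edgeR's test 0 of 13928 genes passed (0%), 334 had an unadjusted p under 0.05, and DESeq2 called 53 and limma 0.

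The difference of the Kcnc2 effect between the sexes was tested directly. The log2 effect of vrest in female minus that in male pools was -0.91 (SE 0.37, edgeR unadjusted p = 0.0461, adjusted p = 0.9998), against a median of -0.20 over all genes, and it did not pass. Over cells Kcnc2 and vrest had a Spearman rho of -0.47 in female P40 and -0.63 in female P42, against 0.14 in male P35 and 0.53 in male P36, and 0.083 over 49 cells. The blood markers had the same split by sex as Kcnc2, with 107 CPM in high-vrest and 2805 CPM in low-vrest cells of female P40, 12.8 and 36.1 CPM in female P42, 164 and 153 CPM in male P35, and 76.7 and 66.3 CPM in male P36. Their part in the Kcnc2 values was not tested. In this test of the sexes 0 of 13928 genes passed (0%), 408 had an unadjusted p under 0.05, and DESeq2 called 92 and limma 0. The same test called 1 of 13958 genes for rm (0.00716%) and 0 of 13944 for cm (0%; 446 at an unadjusted p under 0.05, 106 by DESeq2 and 0 by limma). No Kv3 gene passed in any of the 3, with edgeR adjusted p of 0.9998 to 1.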

How the data were processed

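Per the labels' protocols, cytosol was taken from single cells by patch pipette and libraries were made with a Nextera XT kit. The submitters' processing notes name STAR, edgeR and the build GRCm38. Their versions, the counting tool, the annotation, the read length and the strand setting were not given in any source used here. The authors deposited whole-number counts per gene and cell, not normalized. Their tables of normalized values and neurexin isoforms were not used here.

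Counts of Pass cells were summed per pool, or per pool and side of the pool's median of rm, cm or vrest. Genes counted in 10 or more Pass cells and kept by filterByExpr were tested with edgeR 4.0.16 (R 4.3.3; TMM, quasi-likelihood F test, two-sided, Benjamini-Hochberg adjusted p under 0.05 over all genes tested). Standard errors follow from the fold change and F. Nothing in the labels shows that pools share no animal, so the p-values for female over male measure only the spread between these 4 pools. With the pool as a block, those for rm, cm and vrest measure only how the difference between high and low sums varies over these pools. The alternatives were other normalization, no filter, DESeq2 1.42.0, limma 3.58.1 on mean log2(CPM + 1), thinning to 2054581 counts per cell, leaving out pools or cells, other splits and other lengths. Merged exon lengths are from GENCODE vM21: 9458 bases for Kcnc1, 7138 for Kcnc2 and 3667 for Kcnc4. Identical count columns were not found (0 pairs of cells). The fits were tested on simulated data. The genes, lists and naming rule (the 3 genes throughout, and of each list the 3 highest medians per kb and the 2 smallest p per comparison) were chosen with earlier results of these data known. The cells at the ends of a range were picked after their values were seen, as were Camk2a and Slc17a7 among the relations. Some results that this rule names are not reported here, though the fits and counts include the genes behind them.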

Additional observations from a re-analysis of the deposited data

Results flagged for a closer look

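The Kv3 genes were also read in the 4 cells labelled Fail, which enter no comparison and hold 0.545 to 5.08 M counts. Kcnc1 lay at 225, 146, 196 and 351 CPM in Fail cells 1 to 4, and Kcnc2 at 809, 485, 616 and 431 CPM, all within the range of the Pass cells. Kcnc4 had no count in Fail cell 1 and lay at 8.38, 10.999 and 8.27 CPM in Fail cells 2, 3 and 4. In the split by rm, Pvalb in the low-rm cells of female P40 (300.4 CPM) stood apart from the low-rm cells of the other pools, at 116 to 128 CPM; chance sets about 1 in 20 groups of 4 apart in this way.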

How the results depend on the processing

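No Kv3 gene passed the test in any comparison under any alternative run; Pvalb passed once, for rm by DESeq2 (-1.38). The order of the 3 levels kept its direction under every other length, summary and thinning tried. Leaving out a pool could not reverse it, since each ratio was positive in all 4 pools. The fold changes for differences between the sexes, other than Kcnc2 for vrest, were left out of the count that follows. Of 611 values recomputed for 117 results, 550 kept their direction and side of the threshold or moved by less than the spread between pools. Another 22 were fold changes that changed sign. These fold changes passed no test, and the cause of their sign changes was not tested. Correlations were counted only by how far they moved. Some near 0 changed sign as well, such as Kcnc4 with rm, 0.047 over 49 cells and -0.026 without the Sst or Vip cells. For female over male these were Kcnc2 without the cells in which Sst or Vip lies above Pvalb (-0.11) and Kcnc4 in thinned cells (0.050). For cm they were Kcnc1 by limma (-0.0094), in thinned cells (-0.0024), without the deepest cell of each pool (-0.0071) and without the Sst or Vip cells (-0.22). For vrest they were Kcnc1 by limma (-0.012), in thinned cells (-0.082) and without the deepest cells (-0.15), Kcnc2 with RLE normalization (0.036) and by DESeq2 (0.036), and Kcnc4 with the middle cells of each pool left out (1.09) and, chosen after seeing the data, with cells at the median counted as high (1.59, SE 1.25). Outside that count, differences between the sexes changed sign as well. The difference of the cm effect on Kcnc1 between the sexes, -0.46 (SE 0.37), was 0.39 (SE 0.39) without the Sst or Vip cells. That of the rm effect on Kcnc4, 1.14 (SE 1.58), was -1.83 (SE 3.09) without them. Leaving out each pool in turn gave Kcnc1 -0.019 to 0.35, Kcnc2 -0.0051 to 0.22 and Pvalb -0.59 (SE 0.32, without female P40) to 1.15 for female over male, Kcnc1 -0.077 to 0.29 for cm, and Kcnc1 -0.092 to 0.22 and Kcnc2 -0.21 to 0.26 for vrest.

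Counts of genes called over the whole table moved more. DESeq2 called 179 genes for female over male, 299 for rm, 162 for cm and 53 for vrest, and for the differences between the sexes 171 for rm, 106 for cm and 92 for vrest. Without the filter on low counts 111 genes were called for female over male, and without the Sst or Vip cells 1. For rm, limma, the fit without the pool block, the fit without the middle cells and the fit without the Sst or Vip cells each called 0, and for cm these and the fit without the deepest cells called 0. For the difference between the sexes in rm, limma and the fits without the deepest, the middle or the Sst or Vip cells, or with cells at the median counted as high, called 0. Leaving out 1 pool gave 0 to 23 for female over male (23 without female P40, 6 without female P42, 1 without male P35 and 0 without male P36). It gave 0 to 1 for rm (0 without male P36), for cm (1 without female P40, otherwise 0) and for vrest (1 without female P40, otherwise 0). For the differences between the sexes it gave 0 to 10 for rm (10 without female P40, otherwise 0) and 0 to 517 for vrest (517 without female P40, otherwise 0), where the lone female pool left is assumed to vary like the others.

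The high and low sums are paired by pool; without the pool as a block the log2 fold change was -0.38 for Kcnc1 by rm and -0.39 for Kcnc2 by cm, both short of the test. By cell number, no paired analysis was possible because these numbers only name cells. Cell number and 4 pools limit every comparison, and Kcnc4 is further limited by counts near 0 in most cells.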
